A study of Mus musculus with 12 samples.

Results

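Goblet cells and the mucus they secrete are represented here by 9 genes: Muc2, Fcgbp, Zg16, Tff3, Spink4, Agr2, Atoh1, Spdef and Guca2a. The genes were given as a list and found by symbol in the count tables, where they are 9 of 35791 genes. All 9 passed the filter on low counts, which kept 13154 genes. The 12 libraries, 3 in each of 4 groups, hold small bowel RNA of male C57BL/6 mice, aged 8 to 10 weeks when operated on. Post 2'-FL mice had undergone ileocecal resection, the removal of the end of the ileum with the cecum, and received 2'-fucosyllactose (2'-FL), a fucosylated milk sugar, at 2.5 g/L from day 0. Post control mice had the same resection without the sugar. Libraries named Pre 2'-FL and Pre control are labelled as bowel from before resection in the supplemented and the unsupplemented arm. The protocols put collection of every bowel at 8 weeks after surgery and the start of the sugar on the day of surgery, which does not match the word Pre. The groups are therefore called by their labels, and what a Pre 2'-FL mouse had received is not settled by them. Below, a change after resection is the difference between libraries labelled Post and Pre in an arm. Whether anything besides resection differed between them, such as age at collection, is not settled either. The labels give a liquid diet after surgery to all mice, and give neither the segment of bowel nor whether equal numbers mark the same mouse. Replicates are separate libraries, and the labels do not say how many mice each holds, so a p-value measures the spread between libraries.

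Goblet cells arise when intestinal progenitors escape Notch signalling and switch on the transcription factor Atoh1. Spdef then drives their maturation, and the mature cell packs the gel-forming mucin Muc2, heavily O-glycosylated, into granules together with smaller mucus proteins. The released gel separates bacteria from the epithelium, and in the small bowel it is loose and more permeable than in the colon. In whole bowel RNA, fewer goblet cells and less RNA per goblet cell cannot be told apart.

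RefSeq windows from 250 bases before to 50 bases after a start base (GRCm38.p6) were at hand for 6 of the 9 genes, and not for Tff3, Zg16 or Spink4. The start base is the outer end of the gene except for Spdef. Its window, chr17:27728902-27729201 on the minus strand, lies inside the gene, which runs from 27714446 to 27731003. The windows were searched for the E-box CAGCTG, a form bound by basic helix-loop-helix factors, the family of Atoh1. The word reads the same on both strands. It was found in the windows of Muc2, Fcgbp and Guca2a, and 16.3% of 32851 such windows in the mouse genome hold it. Muc2 and Fcgbp are shown because they are the pair whose as-tested levels varied most alike over the libraries, and Atoh1 because it is the member that was lower in both forms of the test used below. All 3 lie on the plus strand, and capitals mark CAGCTG.
Muc2, chr7:141690090-141690389: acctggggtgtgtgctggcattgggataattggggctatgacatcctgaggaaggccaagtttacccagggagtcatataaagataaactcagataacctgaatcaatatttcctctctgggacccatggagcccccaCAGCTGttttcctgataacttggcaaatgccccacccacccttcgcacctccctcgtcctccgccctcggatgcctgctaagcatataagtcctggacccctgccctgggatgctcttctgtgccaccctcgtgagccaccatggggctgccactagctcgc
Fcgbp, chr7:28070986-28071285: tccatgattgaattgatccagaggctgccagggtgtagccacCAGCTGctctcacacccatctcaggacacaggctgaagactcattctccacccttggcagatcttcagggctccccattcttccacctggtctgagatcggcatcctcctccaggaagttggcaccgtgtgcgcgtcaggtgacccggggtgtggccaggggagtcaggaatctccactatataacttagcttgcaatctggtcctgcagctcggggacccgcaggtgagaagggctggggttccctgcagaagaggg
Atoh1, chr6:64728875-64729174: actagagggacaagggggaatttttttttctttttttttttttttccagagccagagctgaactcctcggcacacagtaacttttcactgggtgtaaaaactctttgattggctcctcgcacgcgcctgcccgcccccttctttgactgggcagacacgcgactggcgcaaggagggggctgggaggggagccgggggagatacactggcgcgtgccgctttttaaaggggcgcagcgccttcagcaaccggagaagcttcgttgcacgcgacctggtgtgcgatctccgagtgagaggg
The match begins at base -112 from the start base of Muc2 and at base -208 of Fcgbp. Guca2a has its match at -206. The windows of Atoh1 and Spdef hold no CANNTG of any kind, the general E-box, which occurs in 72.3% of all windows, while Agr2 has 1 such match, Muc2 2, Guca2a 3 and Fcgbp 4. A match is a run of letters and does not show that a factor binds.

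Libraries held 5663275 to 9385266 counts, so 1 count was worth 0.107 to 0.177 CPM, the count relative to the library total, before TMM scaling (edgeR's trimmed-mean normalisation), which all CPM below carry. The 9 genes together took between 0.657% and 1.11% of all counts of a library, both extremes being Post 2'-FL libraries. Atoh1 and Spdef were the shallow members, with 29 to 154 and 40 to 157 counts, and every other member had at least 917 counts in every library. All 9 goblet cell markers (8 members and Clca1), 11 enterocyte markers and 8 Paneth cell markers were tested, as small bowel should hold, and the colonic marker Car1 was at 0 in all 12 libraries. Levels also followed transcript length. Taken over 13038 genes, as a description, Spearman's rho of length with the level relative to the gene's own mean was -0.44, -0.56 and -0.59 in Post 2'-FL and -0.03, -0.20 and 0.35 in Post control. It was 0.49, 0.39 and 0.36 in Pre 2'-FL and 0.41, 0.45 and 0.26 in Pre control. Positive values mean that long transcripts stand relatively high. The members run from Spink4 at 397 nt to Fcgbp at 7928 nt, so each change below is given as tested and again with length and GC content corrected. The part of the length trend in the as-tested changes was not tested in any other way.

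Per kilobase of transcript, Zg16 was the most abundant member, with a mean of 6160 CPM per kb over the 12 libraries (3394 to 10319). Tff3 followed at 2755 (1481 to 5677), then Spink4 at 1248 (446 to 3238), Guca2a at 773 (499 to 1282) and Agr2 at 462 (295 to 945), all in CPM per kb. The ranges of neighbours in this order overlap, and the place of Spink4 above Guca2a depends on the group. Spink4 had 3238, 1442 and 2483 against 540, 945 and 656 for Guca2a in Post 2'-FL, but 767, 862 and 446 against 721, 943 and 499 in Post control. Fcgbp stood apart below them at 211 CPM per kb (74.6 to 362, overlapping only Agr2) and above Muc2 at 49.9 (22.7 to 74.4). The Muc2 value is uncertain, since the annotation holds Muc2 in fragments and the 7127 nt used are the joined exons it lists. A longer true length would lower the value, but which exons the counts cover is not known. Both transcription factors were far lower, Spdef at 6.23 CPM per kb (3.94 to 8.60) and Atoh1 at 5.32 (2.59 to 8.21), and these do not differ beyond their spread.

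The mucin and its partner come first. Muc2, which forms the polymer of the mucus gel (Entrez 17831, chromosome 7, 141690340 to 141754691), had 174, 162 and 293 CPM in Post 2'-FL, 209, 306 and 309 CPM in Post control, 428, 468 and 502 CPM in Pre 2'-FL, and 473, 412 and 530 CPM in Pre control. All 6 Post libraries lay below all 6 Pre libraries. Fcgbp, a very large secreted protein found in the mucus (Entrez 215384, chromosome 7, 28071236 to 28120864), had 707, 591 and 1203 CPM in Post 2'-FL, 999, 1440 and 1911 CPM in Post control, 2277, 1777 and 1846 CPM in Pre 2'-FL, and 2872, 2373 and 2113 CPM in Pre control. Here too every Post library of an arm lay below every Pre library of that arm, although Post control 3 reached into the Pre 2'-FL range.

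Among the small secreted proteins, Zg16, a lectin that binds the wall of Gram-positive bacteria (Entrez 69036, chromosome 7, 127050156 to 127052675), had 5161, 3285 and 6563 CPM in Post 2'-FL, 4623, 6272 and 3379 CPM in Post control, 2791, 2159 and 2499 CPM in Pre 2'-FL, and 3650, 3826 and 2806 CPM in Pre control. Tff3, a trefoil peptide that promotes epithelial repair (Entrez 21786, chromosome 17, 31125306 to 31129611), had 2740, 1244 and 2799 CPM in Post 2'-FL, 1286, 1802 and 847 CPM in Post control, 816, 730 and 806 CPM in Pre 2'-FL, and 1130, 1171 and 930 CPM in Pre control. In both genes the Post 2'-FL libraries were above the Pre 2'-FL libraries, library 2 of Post 2'-FL was the lowest of its group, and Post 2'-FL overlapped Post control. Spink4, a small protein of the Kazal family of protease inhibitors (Entrez 20731, chromosome 4, 40920056 to 40931395), had 1286, 572 and 986 CPM in Post 2'-FL, 305, 342 and 177 CPM in Post control, 204, 423 and 486 CPM in Pre 2'-FL, and 279, 347 and 539 CPM in Pre control. The 3 Post 2'-FL libraries were above the other 9, with library 2 just above Pre control 3.

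Agr2, a protein disulfide isomerase of the endoplasmic reticulum that mucin production needs (Entrez 23795, chromosome 12, 35992925 to 36004081), had 741, 432 and 476 CPM in Post 2'-FL, 317, 375 and 231 CPM in Post control, 234, 300 and 247 CPM in Pre 2'-FL, and 274, 378 and 343 CPM in Pre control. Like Spink4, it was higher in the 3 Post 2'-FL libraries than in any other. Guca2a, which encodes guanylin, a peptide ligand of guanylate cyclase C that governs fluid secretion (Entrez 14915, chromosome 4, 119637732 to 119639465), had 321, 562 and 390 CPM in Post 2'-FL, 428, 560 and 297 CPM in Post control, 394, 389 and 386 CPM in Pre 2'-FL, and 640, 761 and 386 CPM in Pre control. Its groups overlapped throughout.

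The lineage factors had their highest group means in Pre control. Atoh1, the switch of the secretory lineage (Entrez 11921, chromosome 6, 64729125 to 64731245), had 5.49, 6.01 and 8.93 CPM in Post 2'-FL, 9.86, 12.6 and 13.1 CPM in Post control, 8.10, 11.9 and 11.01 CPM in Pre 2'-FL, and 17.4, 15.6 and 15.3 CPM in Pre control. Post 2'-FL lay below Post control, Pre 2'-FL lay below Pre control, and Post 2'-FL 3 was above the lowest Pre 2'-FL library. Spdef, the factor of goblet cell maturation (Entrez 30051, chromosome 17, 27714446 to 27731003), had 7.58, 8.78 and 11.3 CPM in Post 2'-FL, 11.2, 11.5 and 10.8 CPM in Post control, 10.6, 10.2 and 14.9 CPM in Pre 2'-FL, and 14.2, 15.95 and 16.5 CPM in Pre control. Of the 4 comparisons made below, Spdef separated without overlap in 1, Post control against Pre control.

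**Figure D1:**
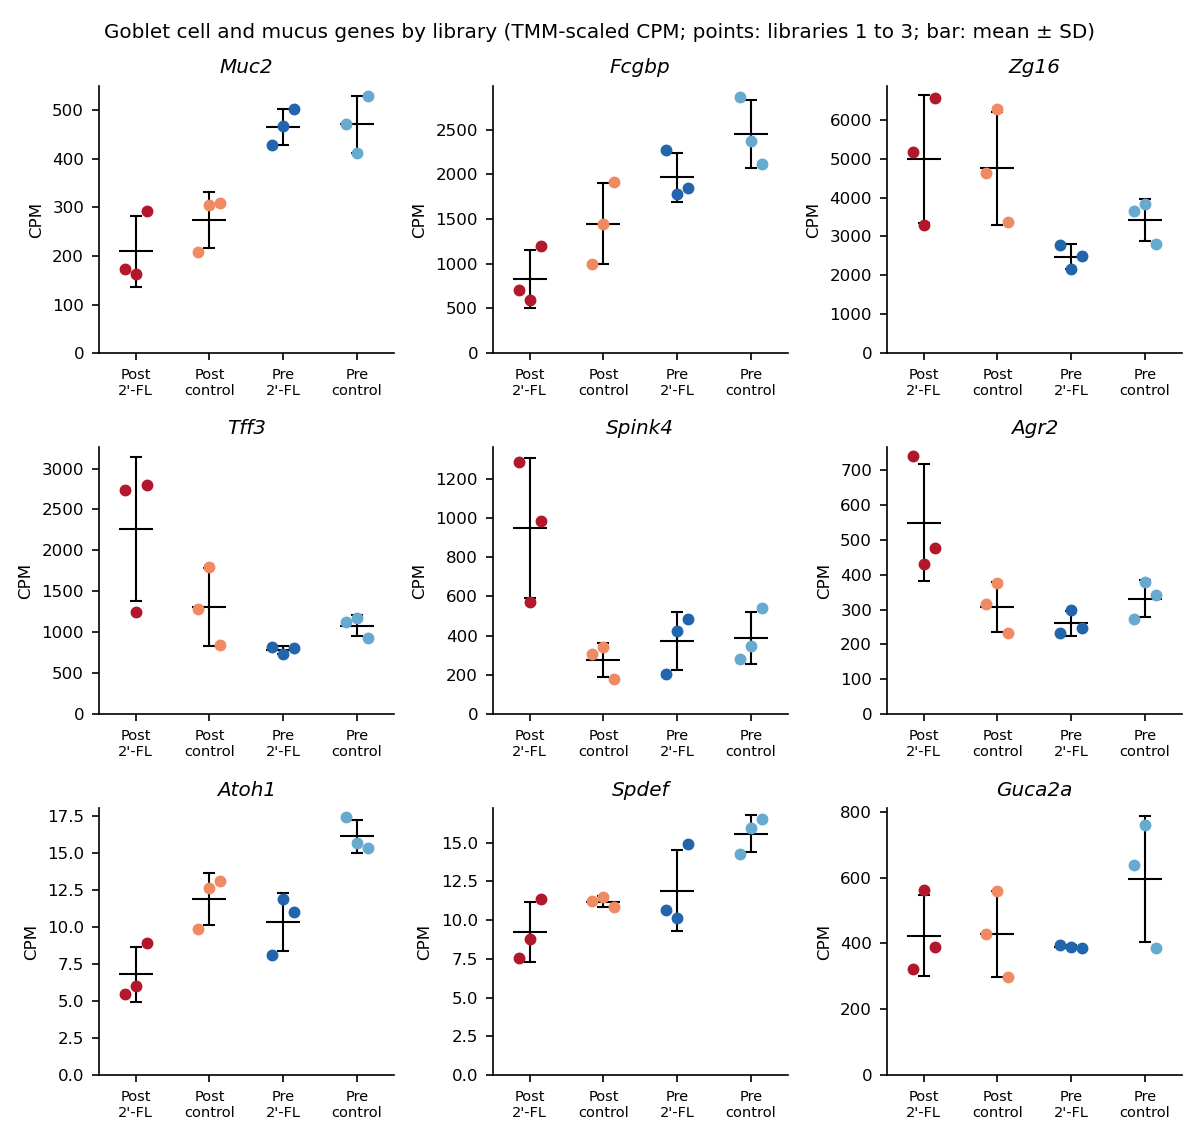
Level of each of the 9 genes, in CPM on a linear axis from 0, in the 3 libraries of each group (points) with the group mean and SD (bars). Muc2 is lower in all 6 Post than in all 6 Pre libraries, and Spink4 and Agr2 are highest in the 3 Post 2'-FL libraries.

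Post 2'-FL against Pre 2'-FL, the change after resection in the supplemented arm, moved the members in both directions. As tested, the secreted proteins Tff3, Zg16 and Spink4 and the isomerase Agr2 were higher, and Muc2 and Fcgbp were lower, each with no overlap between groups, as 61.6% of all genes (27.9% higher, 33.7% lower). This makes 6 of 9 called at an adjusted p under 0.05, against 55.3% of all genes tested, with 4 higher (25.3% of all genes) and 2 lower (30.0%). The log2 changes with their standard errors (SE) and edgeR's adjusted p were 1.53 ± 0.32 for Tff3 (adjusted p = 0.00132), 1.35 ± 0.38 for Spink4 (adjusted p = 0.00773), 1.08 ± 0.25 for Agr2 (adjusted p = 0.0023) and 1.01 ± 0.31 for Zg16 (adjusted p = 0.0131). Muc2 fell by 1.15 ± 0.24 (adjusted p = 0.00131, edgeR), 2.23-fold, and Fcgbp fell by 1.24 ± 0.31 (adjusted p = 0.00364, edgeR), 2.36-fold. Atoh1 (-0.60 ± 0.25, adjusted p = 0.0517, edgeR), Spdef (-0.36 ± 0.22) and Guca2a (0.12 ± 0.29) did not pass. Zg16 was not called without Post 2'-FL 3, where its change was 0.77.

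With length and GC corrected, none of those 6 genes passed in this arm. Tff3 stood at 0.50 ± 0.26, Spink4 at 0.23 ± 0.25, Muc2 at 0.15 ± 0.25, Fcgbp at 0.47 ± 0.30, Zg16 at -0.17 ± 0.27 and Agr2 at -0.39 ± 0.17 (adjusted p = 0.0819, edgeR), so that 4 of them changed sign. The Muc2 value rests on its fragmentary length. Atoh1 was the 1 member called, at -0.65 ± 0.23 (adjusted p = 0.042, edgeR), against 35.6% of all genes called in the corrected fit, 20.5% higher and 15.0% lower. It was called in 4 of the 12 corrected fits that each left out 1 library, with changes of -0.83 to -0.51. Over the 9 members, Spearman's rho between length and the as-tested change was -0.92 in this arm, and over 13038 genes it was -0.55, both given as descriptions across genes. The enterocyte markers, 11 genes from Alpi to Krt20 with all 11 tested, summed to 70186 to 73243 CPM in Post 2'-FL against 25892 to 49991 CPM in Pre 2'-FL. Most of that difference was in Fabp2, with 42484, 33631 and 34914 CPM in Post 2'-FL against 7909, 4417 and 3024 CPM in Pre 2'-FL. Of the 11 genes 2 were called higher and 4 lower (1 and 0 corrected), with a median change of 0.09 (-0.29 corrected). Paneth cell markers were called lower in 3 of 8 genes, and in 8 of 8 corrected. The part of these markers in the changes of the members was not tested.

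**Figure D2:**
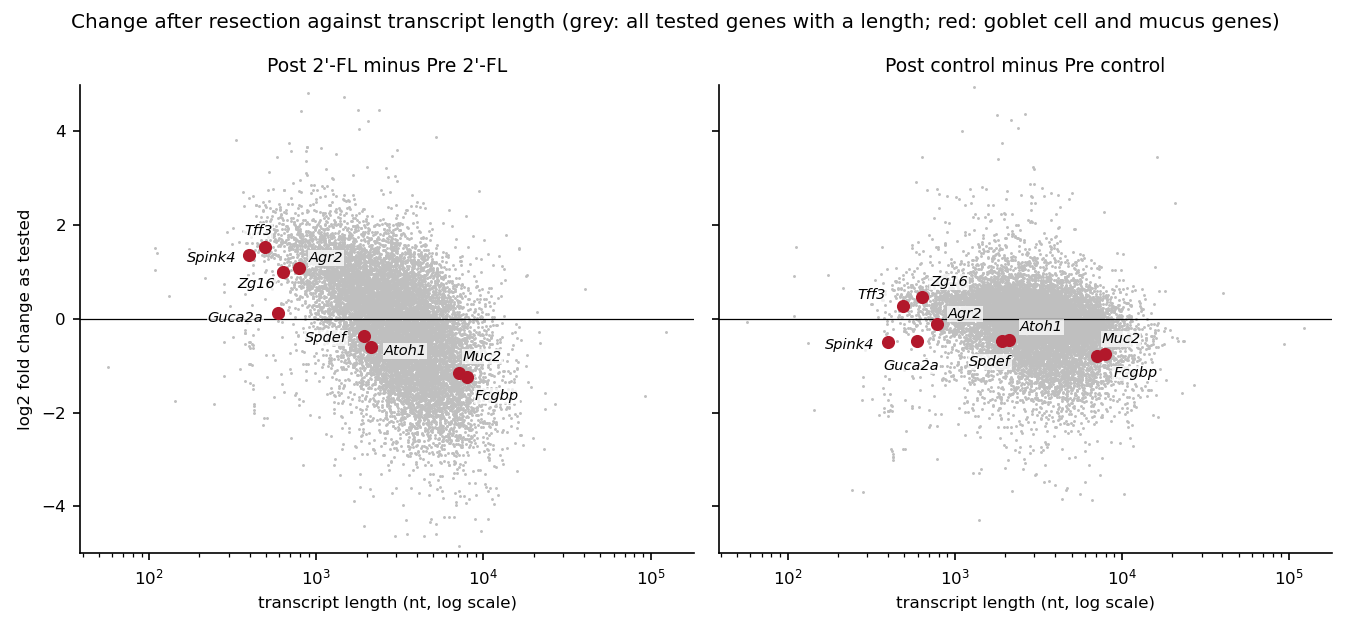
Log2 change as tested against transcript length in nt (log axis), for the 2'-FL arm on the left and the control arm on the right, with 13038 genes in grey and the 9 members in red. In the 2'-FL arm the short members from Spink4 to Agr2 lie above 0 and the long Muc2 and Fcgbp below; 11 and 10 genes fall outside the vertical axis.

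Post control against Pre control, the change after resection without the sugar, called none of the 9 members, where 10.8% of all genes were called, 4.42% higher and 6.33% lower (3889 genes had an unadjusted p under 0.05 in edgeR, and DESeq2 called 1 member, Muc2). Muc2 was closest, at -0.78 ± 0.24 (adjusted p = 0.0526, edgeR), and passed with DESeq2 at -0.74 (adjusted p = 0.0279) and without any 1 of the Post 2'-FL libraries. Fcgbp stood at -0.76 ± 0.30, Spdef at -0.48 ± 0.21 and Atoh1 at -0.44 ± 0.23. These 4 genes had no overlap between the groups, all with Post control below, as 17.6% of all genes did, of 34.9% without overlap in either direction. Tff3 (0.28 ± 0.32) and Zg16 (0.47 ± 0.31) had positive values, and Agr2 (-0.11 ± 0.25), Spink4 (-0.50 ± 0.37) and Guca2a (-0.48 ± 0.29) negative ones. The median over the 9 was -0.48 as tested and -0.34 corrected, beside medians of -0.05 and 0.05 over all genes. Corrected, no member was called, where 12.2% of all genes were, 7.24% higher and 4.93% lower. Muc2 then stood at -0.33 ± 0.25, Fcgbp at -0.25 ± 0.30, Spdef at -0.42 ± 0.18 and Atoh1 at -0.44 ± 0.21, so the last 2 kept nearly their as-tested size. Paneth cell markers fell in 8 of 8 genes in this arm, with sums of 6404 to 8322 CPM in Post control against 22356 to 40042 CPM in Pre control. Their part in the values of the members was not tested.

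Post 2'-FL against Post control sets supplemented against unsupplemented bowel after resection. Spink4 and Agr2 were higher and Atoh1 was lower with the sugar, which makes 3 of 9 called against 38.1% of all genes (18.8% higher and 19.3% lower). None of these 3 overlapped between the groups, nor did 50.7% of all genes (25.2% higher, 25.4% lower). Spink4 averaged 948 ± 358 CPM in Post 2'-FL and 275 ± 86.5 CPM in Post control (SD, n = 3 each), a log2 change of 1.79 ± 0.38 (SE, adjusted p = 0.0029, edgeR) or 3.45-fold. Agr2 averaged 550 ± 167 CPM and 308 ± 72.3 CPM in the same groups, a change of 0.84 ± 0.25 (adjusted p = 0.0163, edgeR). Atoh1 averaged 6.81 ± 1.85 CPM in Post 2'-FL and 11.9 ± 1.76 CPM in Post control and fell by 0.81 ± 0.24 (adjusted p = 0.0186, edgeR), 1.75-fold. Fcgbp (-0.80 ± 0.30, adjusted p = 0.0501, edgeR) and Tff3 (0.79 ± 0.32, adjusted p = 0.065, edgeR) came near the threshold, while Muc2 (-0.39 ± 0.24), Spdef (-0.28 ± 0.22), Zg16 (0.07 ± 0.31) and Guca2a (-0.01 ± 0.29) did not. Markers of other cell types also differed between these groups. Paneth cell markers were called higher in 5 of 8 genes (1 corrected), with sums of 12693 to 31139 CPM in Post 2'-FL against 6404 to 8322 CPM in Post control. Enterocyte markers were called lower in 5 of 11 genes and higher in 1 (4 and 0 corrected), with a median change of -0.65 (-0.66 corrected). Their sums were nevertheless 70186 to 73243 CPM in Post 2'-FL against 56942 to 69579 CPM in Post control. Fabp2 alone had 42484, 33631 and 34914 CPM in Post 2'-FL against 20607, 23540 and 13490 CPM in Post control. The part of the Paneth cell and enterocyte markers in the values of the members was not tested. Agr2 was not called without Post control 3 (0.72) or Post 2'-FL 1 (0.56), and Atoh1 was not called without Post control 2 (-0.71), Post control 3 (-0.66), Post 2'-FL 1 (-0.68) or Post 2'-FL 2 (-0.72).

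Corrected for length and GC, Atoh1 kept its call in this comparison and Zg16 gained one, both lower. Atoh1 had corrected levels of 2.60, 2.59 and 3.08 log2 CPM in Post 2'-FL against 3.36, 3.66 and 3.79 log2 CPM in Post control. These did not overlap, and the corrected change was -0.87 ± 0.23 (adjusted p = 0.0187, edgeR). Leaving out 1 library at a time gave -1.06 to -0.76 for Atoh1, called in 10 of 12 fits; it was not called without Post control 3 (-0.76) or Post 2'-FL 1 (-0.79). Zg16 had corrected levels of 11.28, 11.12 and 11.85 log2 CPM in Post 2'-FL against 12.30, 12.59 and 12.21 log2 CPM in Post control, a change of -0.93 ± 0.28 (adjusted p = 0.0295, edgeR). It was called in 7 of 12 such fits (-1.17 to -0.79), not without any of the 3 Post control libraries (-0.96, -0.80 and -1.001) nor without Post 2'-FL 1 (-0.85) or 2 (-0.79). Spink4 stood at 0.68 ± 0.25 (adjusted p = 0.0694, edgeR), and Agr2 at -0.38 ± 0.17 with the corrected Post 2'-FL libraries below the Post control libraries. The corrected fit called 21.7% of all genes here, 10.1% higher and 11.6% lower.

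**Figure D3:**
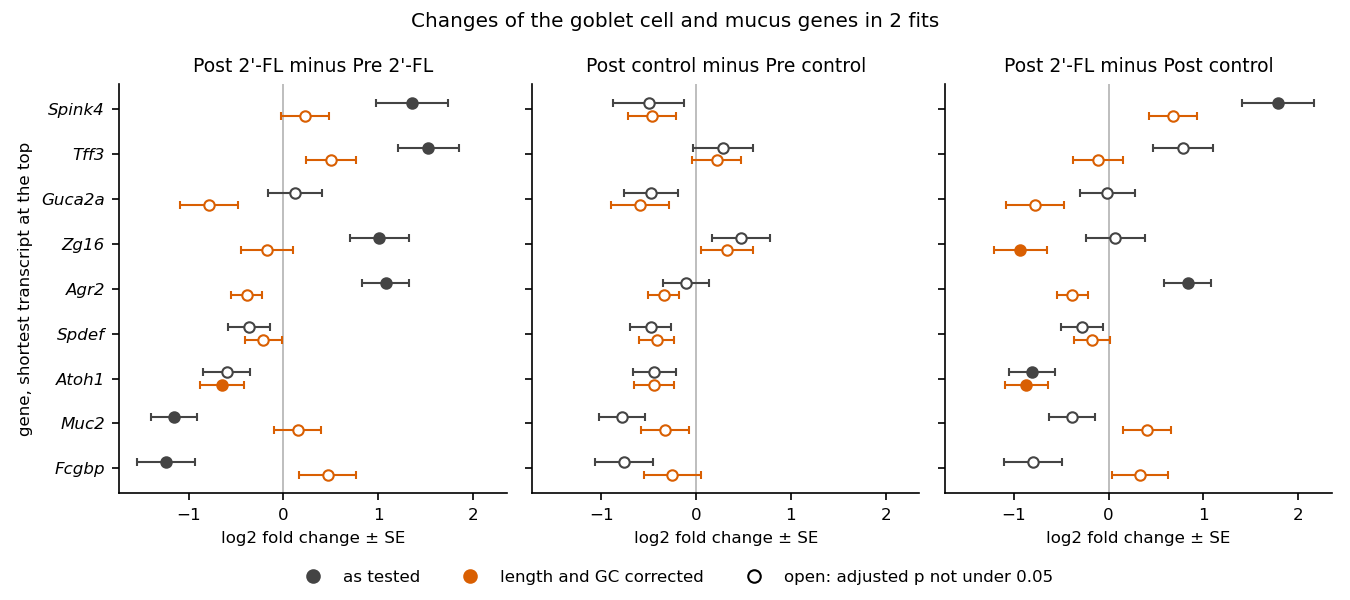
Log2 fold change of each member with its SE (bars) in 3 comparisons, as tested (grey) and with length and GC corrected (orange), genes ordered from the shortest transcript at the top; filled points have an adjusted p under 0.05. Atoh1 lies at nearly the same value in both fits in each comparison, while those of Spink4, Tff3, Muc2 and Fcgbp in the left and right panels move toward or across 0.

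Between Pre 2'-FL and Pre control, none of the 9 members was called, and only 2 genes in all (0.0152%; 445 genes had an unadjusted p under 0.05 in edgeR, and DESeq2 called 23). Atoh1 (-0.65 ± 0.23), Tff3 (-0.46 ± 0.32) and Zg16 (-0.47 ± 0.31) nevertheless lay lower in Pre 2'-FL with no overlap, as 4.91% of all genes did, while 4.31% lay higher, 9.22% together. Atoh1 averaged 10.3 ± 1.98 CPM in Pre 2'-FL and 16.1 ± 1.12 CPM in Pre control (SD, n = 3 each). The corrected value for Atoh1 was -0.66 ± 0.22. This Pre difference of -0.65 stands beside the Post difference of -0.81 in Atoh1. The interaction of Atoh1, the difference between the arms in the change after resection (2'-FL arm minus control arm), was -0.16 ± 0.33 as tested and -0.21 ± 0.31 corrected.

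The change after resection differed between the arms for 2 members, Spink4 (1.86 ± 0.53, adjusted p = 0.0326, edgeR) and Agr2 (1.19 ± 0.35, adjusted p = 0.0358, edgeR), where 15.5% of all genes were called, 7.47% higher and 8.03% lower. Each was called in 5 of the 12 fits that left out 1 library. Corrected, Spink4 stood at 0.69 ± 0.36 and Agr2 at -0.04 ± 0.23, and 0 of the 13154 genes were called (0.00%). Tff3 had an interaction of 1.24 ± 0.45 (adjusted p = 0.0719, edgeR; 0.29 ± 0.37 corrected). For the remaining 6 members it ran from -0.48 for Fcgbp to 0.60 for Guca2a.

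Muc2 offers a second view of the same libraries, because the count tables hold it at 2 entries, and no position was used to tell which part of the gene each covers. The smaller entry held 0.218%, 0.380% and 0.191% of the Muc2 counts in Post 2'-FL, and 0.518%, 0.299% and 1.32% in Post control. It held 1.44%, 1.62% and 1.77% in Pre 2'-FL and 2.55%, 1.60% and 2.39% in Pre control. All 6 Post libraries were lower than all 6 Pre libraries, and Post control 3, whose length rho of 0.35 lay among those of the Pre libraries, was the highest of the Post libraries. Counted by this entry alone, Muc2 changed by -3.81 in the 2'-FL arm, -2.24 in the control arm and -2.03 between Post 2'-FL and Post control (adjusted p = 0.0217, edgeR, in the last). These folds rest on 2 to 7.01 counts in 5 of the 6 Post libraries. Counted by the larger entry alone the changes were -1.13, -0.76 and -0.38 in the same order.

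**Figure D4:**
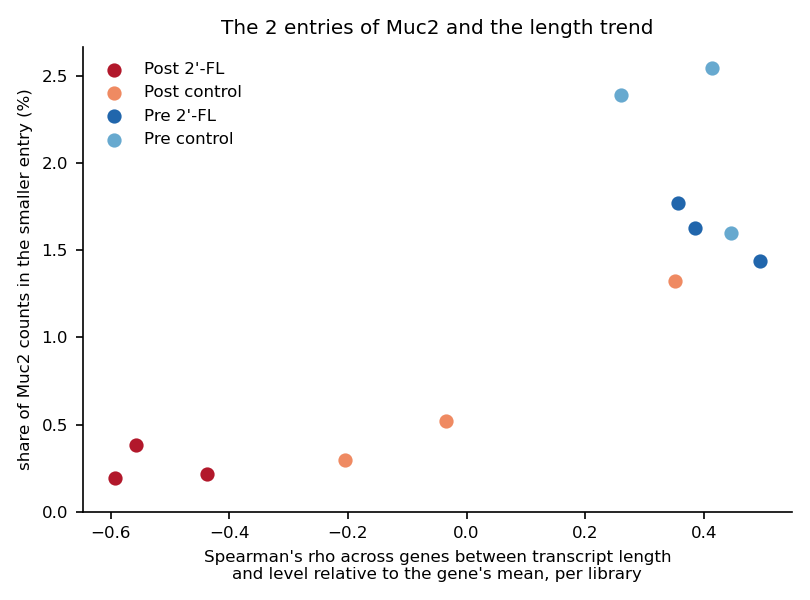
Share of the Muc2 counts that lie in the smaller of its 2 entries (vertical axis, percent) against Spearman's rho between transcript length and relative level across genes in that library (horizontal axis), 1 point per library coloured by group. The 5 libraries with a negative rho have shares of 0.191% to 0.518%, and the 7 with a positive rho 1.32% to 2.55%.

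The members did not vary as 1 block. Over the 12 libraries, Pearson's r between log2 levels was 0.92 for Muc2 with Fcgbp, 0.90 for Tff3 with Zg16 and 0.83 for Spdef with Atoh1, and it was 0.71, 0.65 and 0.79 for these pairs on corrected levels. Agr2 went with Tff3 and with Spink4 as tested (0.85 each) and with neither when corrected (-0.06 and -0.18), where its values lay closest to Guca2a (0.79) and Atoh1 (0.77). Tff3 with Fcgbp turned from -0.58 to 0.70 on correction. All these values share libraries and the group structure and are descriptions. The genes most like the mean of the 9, among other genes with a mean of at least 5 CPM, were Klk1 (r = 0.88), Tpsg1 (0.86), Homer2 (0.82), Tm4sf4 (0.80) and Rep15 (0.79) over the 12 libraries. On corrected levels they were Tpsg1 (0.85), B4galt5 (0.85), Rreb1 (0.83), Tm4sf4 (0.83) and Dclre1a (0.83). The members themselves followed this mean less closely, with r from 0.24 for Spink4 to 0.62 for Spdef as tested. On corrected levels their r ran from 0.08 for Spink4 to 0.81 for Spdef.

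Other goblet cell products and parts of the secretory machinery were read from a list of 30 genes, 23 of them tested. In the 2'-FL arm 5 were higher and 8 lower after resection (4 and 8 of these also when corrected), and between Post 2'-FL and Post control 3 were higher and 6 lower (2 and 6 also when corrected). In the control arm 2 were higher and 3 lower (1 and 2 also when corrected). Of all genes, 25.3% were higher and 30.0% lower in the 2'-FL arm, 18.8% and 19.3% between the Post groups, and 4.42% and 6.33% in the control arm. As tested, the list's calls in the 2'-FL arm and between the Post groups are therefore near those of all genes in number. The corrected fit called 5 of the 23 higher and 10 lower in the 2'-FL arm, beside 20.5% and 15.0% of all genes. Between the Post groups it called 2 higher and 7 lower, beside 10.1% and 11.6%. In the control arm these were 1 and 3, beside 7.24% and 4.93%. Corrected, the list's lower calls were thus more frequent than among all genes. The median change was 0.10 and -0.54 corrected in the 2'-FL arm, where the median of all genes was -0.13 and 0.01.

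Clca1, a metalloprotease secreted into mucus, listed in the count tables under its old symbol Clca3 (Entrez 23844, chromosome 3, 145004537 to 145032776), had 303, 297 and 406 CPM in Post 2'-FL and 589, 1045 and 988 CPM in Post control. It had 1176, 953 and 783 CPM in Pre 2'-FL and 1464, 1561 and 1025 CPM in Pre control. Post 2'-FL was below every other library, and Clca3 fell by 1.53 ± 0.27 in the 2'-FL arm and by 1.38 ± 0.27 between Post 2'-FL and Post control. Corrected, Clca3 stood at -1.25 and -1.29, both called in edgeR. Ern2, the stress sensor IRE1β of mucus-producing epithelium (Entrez 26918, chromosome 7, 122169893 to 122186239), had 1.33, 2.93 and 1.67 CPM in Post 2'-FL, 4.01, 4.75 and 7.42 CPM in Post control, 6.89, 8.44 and 8.64 CPM in Pre 2'-FL and 9.66, 10.97 and 11.2 CPM in Pre control. It was lower in the 2'-FL arm (-1.98 ± 0.33, corrected -1.38) and in Post 2'-FL against Post control (-1.44 ± 0.34, corrected -1.01), called in both fits. In the control arm Ern2 stood at -0.95 ± 0.29 as tested, where it was called, and at -0.79 corrected, where it was not.

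By the smallest p in Post 2'-FL against Post control, the list gave Ccl9, a chemokine, at 1.90 ± 0.34 (corrected 1.53), Sytl2, a synaptotagmin-like protein of granule docking, at -1.17 ± 0.21 (corrected -1.10), and Capn9, a calpain of the digestive tract, at -1.48 ± 0.27 (corrected -1.38), besides Clca3. Each was called in both fits with no overlap between the groups. Capn9 had 3.41, 8.47 and 8.37 CPM in Post 2'-FL against 16.5, 20.7 and 19.6 CPM in Post control. In the 2'-FL arm S100a6, a calcium-binding protein, stood at 2.02 ± 0.26 (corrected 1.08) and Tspan13, a tetraspanin, at 1.28 ± 0.19 (corrected 0.60), both called higher in both fits. In the control arm S100a6 rose by 1.15 ± 0.25 (corrected 0.99). Creb3l4, a transcription factor tethered in the endoplasmic reticulum, fell by 1.18 ± 0.28 there (corrected value -1.29), and Galnt12, which starts O-glycan chains, fell by 0.59 ± 0.16 (corrected value -0.55). Tspan13 was called in the control arm as tested (0.65 ± 0.19) and not corrected (0.49). In the fits that left out 1 library, Creb3l4 was called in 7 of 12, Tspan13 in 6, Galnt12 in 4 and Ern2 in 3 in the control arm, and S100a6 in 9.

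**Figure D5:**
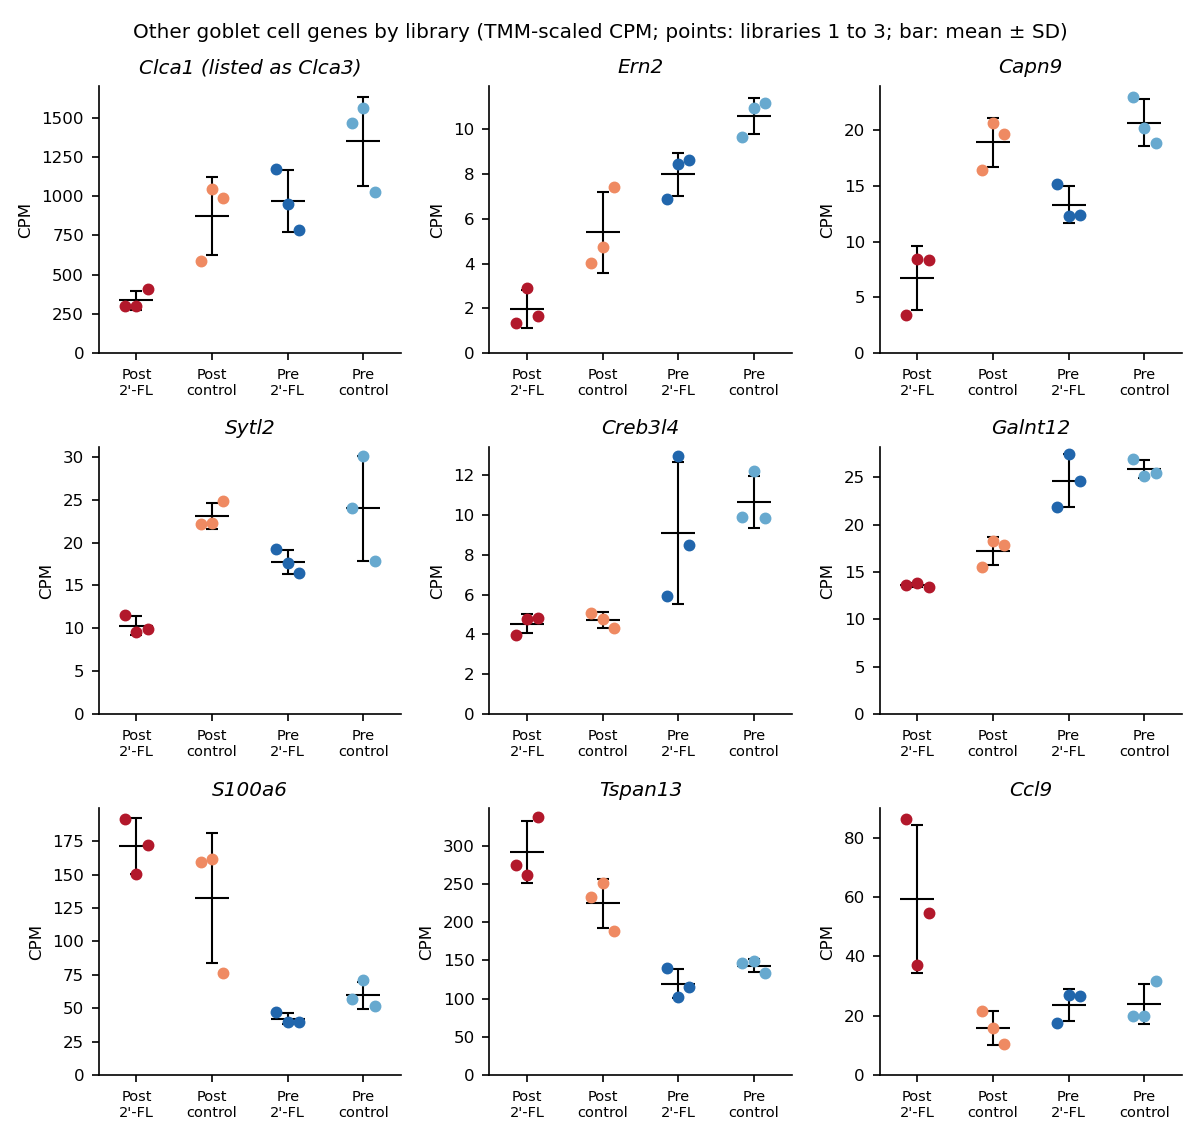
Level of 9 other goblet cell genes, in CPM on a linear axis from 0, in the 3 libraries of each group (points) with the group mean and SD (bars). Clca1, Ern2, Capn9 and Sytl2 are lowest in the 3 Post 2'-FL libraries, and Ccl9 is highest there.

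The Notch pathway and the transcription factors of the secretory lineage, which set how many cells take the goblet fate, were read from 25 genes, 24 of them tested. After resection 0 were higher and 14 lower in the 2'-FL arm (4 of the 14 also corrected), and 0 higher and 5 lower in the control arm (4 of the 5 also corrected). Between Post 2'-FL and Post control 1 was higher and 6 were lower (1 and 4 also corrected). The list's median was -0.81 in the 2'-FL arm (-0.38 corrected) and -0.62 in the control arm (-0.54 corrected), beside all-gene medians of -0.13 (0.01 corrected) and -0.05 (0.05 corrected). Of all genes 30.0% were lower in the 2'-FL arm and 6.33% in the control arm, or 15.0% and 4.93% corrected, and 19.3% between the Post groups. As tested, the list's lower calls were thus more frequent than among all genes in both arms. The corrected fit called 1 higher and 4 lower in the 2'-FL arm, where the lower share is near that of all genes. In the control arm it called 0 higher and 5 lower, again more frequent in lower calls than all genes. Between the Post groups it called 3 higher and 4 lower, beside 10.1% and 11.6% of all genes. Dll1, a Notch ligand carried by early secretory cells (Entrez 13388, chromosome 17, 15367354 to 15376932), had 4.54, 11.5 and 8.37 CPM in Post 2'-FL against 19.9, 14.99 and 24.3 CPM in Post control. This was a change of -1.27 ± 0.30 (corrected -0.76, called in both fits). Klf4, a factor of goblet cell differentiation (Entrez 16600, chromosome 4, 55527137 to 55532475), had 109, 242 and 183 CPM against 429, 479 and 550 CPM in the same groups, a change of -1.45 ± 0.28 (corrected -1.10, called in both fits). Maml1, a Notch coactivator, stood at -1.83 ± 0.31 in that comparison (corrected -1.01, called), and the corepressor Cbfa2t3 at -1.76 ± 0.45 (corrected -0.80, not called). In the 2'-FL arm Cbfa2t3 stood at -3.78 ± 0.42 and Rbpj, the DNA-binding partner of Notch, at -1.08 ± 0.18, and both were also called when corrected (-2.32 and -0.62). Maml1 (-1.82 ± 0.31) and the Notch ligand Jag2 (-2.48 ± 0.49) were called in that arm only as tested. In the control arm Notch2 (-1.82 ± 0.34), Cbfa2t3 (-1.81 ± 0.34) and Foxa1 (-1.08 ± 0.22), a forkhead factor of the gut epithelium, were called in both fits, and Notch1 (-1.35 ± 0.31) only as tested. Leaving out 1 library kept the control-arm call of Notch1 in 9 of 12 fits and that of Foxa1 in 11.

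Enzymes and transporters of mucin O-glycosylation, which build the sugar coat of Muc2, were measured through 27 tested genes of 29. In the 2'-FL arm 3 were higher and 7 lower (2 and 3 also corrected), between Post 2'-FL and Post control 2 were higher and 8 lower (0 and 4 also corrected), and in the control arm 0 were higher and 1 lower, Galnt12. In both directions together and as tested, the list's calls were no more frequent than the 55.3%, 38.1% and 10.8% of all genes called. Between the Post groups 18.8% of all genes were higher and 19.3% lower, so the list's lower calls were more frequent there. The corrected fit called 5 higher and 5 lower in the 2'-FL arm, and 1 and 5 between the Post groups. In the control arm it called 2 and 2. Of all genes, it called 35.6%, 21.7% and 12.2% in the same order. St3gal4, a sialyltransferase, was higher in the 2'-FL arm at 1.24 ± 0.28 (corrected 1.12), while Galnt12 was lower at -0.85 ± 0.17 (corrected -0.69), both called in both fits. C1galt1c1, the chaperone of the core O-glycan enzyme, was called higher as tested (0.96 ± 0.21) and called lower when corrected (-0.65). Slc26a2, a sulfate transporter, was called there only as tested (-1.82 ± 0.43, corrected -1.01). Between Post 2'-FL and Post control the smallest p were those of St3gal1 (-2.22 ± 0.40, corrected -1.63), Galnt6 (-1.04 ± 0.22, corrected -0.46 and not called), B3gnt3 (-1.17 ± 0.25, corrected -0.84) and Gcnt4 (-1.05 ± 0.26, corrected -0.76).

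Transmembrane mucins coat the enterocyte surface rather than the gel, and 4 of the 8 listed were tested. Muc3 was lower in the 2'-FL arm (-1.69 ± 0.33, corrected -2.11) and Muc13 in Post 2'-FL against Post control (-1.01 ± 0.26, corrected -0.94), each called in both fits. In the control arm 0 were called as tested but 2 corrected. These were Muc13, higher (0.75 ± 0.26 as tested, 0.85 corrected), and Muc3, lower (-0.99 ± 0.32 as tested, -1.08 corrected). The length used for Muc3, 1943 nt, is a union of exons as for Muc2. Its corrected values and calls are therefore uncertain. Of 8 genes of the guanylate cyclase C axis, the pathway of guanylin, 1 was higher and 1 lower in the 2'-FL arm. These were Guca2b, the sister peptide uroguanylin (0.96 ± 0.29, corrected 0.02), and the receptor Gucy2c (-0.98 ± 0.22, corrected -0.36), both called only as tested. Between Post 2'-FL and Post control 0 were higher and 2 lower, Gucy2c (-0.91 ± 0.22, corrected -0.56 and not called) and the anion exchanger Slc26a6 (-1.13 ± 0.27, corrected -0.80 and called). In the control arm 0 were called as tested and 1 corrected, Slc26a6 (0.68 as tested, 0.80 corrected). The background of calls as tested was 55.3% of the 13154 genes for the 2'-FL arm, 38.1% between the Post groups and 10.8% for the control arm. Corrected, it was 35.6%, 21.7% and 12.2% in the same order. As tested, the calls in the transmembrane mucins and in this axis were thus no more frequent than the background in any of these comparisons.

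Folding and stress genes of the endoplasmic reticulum, where Agr2 works, were measured through 22 genes. In the 2'-FL arm 5 were higher and 7 lower (2 and 6 also corrected), between Post 2'-FL and Post control 1 was higher and 5 lower (0 and 3 also corrected), and in the control arm 2 were higher and 1 lower (2 and 0 also corrected). Of all genes 55.3%, 38.1% and 10.8% were called in these comparisons. As tested, the list's share was therefore near that of all genes in the 2'-FL arm and below it between the Post groups. The corrected fit called 5 higher and 6 lower in the 2'-FL arm, above the share of all genes (20.5% and 15.0%, together 35.6%). It called 1 higher and 4 lower between the Post groups (10.1% and 11.6% of all genes). In the control arm it called 3 higher and 0 lower (7.24% and 4.93% of all genes). Atf4, a transcription factor of the stress response, rose in the 2'-FL arm by 1.18 ± 0.19 (corrected 0.92) and in the control arm by 0.87 ± 0.18 (corrected 0.83), where Ddit3, its target CHOP, rose by 0.94 ± 0.20 (corrected 0.82), called in 10 of 12 fits that left out 1 library. Sec61b, a subunit of the protein import channel, stood at 1.85 ± 0.23 in the 2'-FL arm (corrected 0.66, called) and at 1.45 ± 0.23 in Post 2'-FL against Post control (corrected 0.40, not called). The sensors Ern1 (-1.89 ± 0.27, corrected -0.73) and Atf6 (-1.35 ± 0.18, corrected -0.48) were lower in the 2'-FL arm in both fits. In Post 2'-FL against Post control Ern1 was lower in both fits (-1.71 ± 0.27, corrected -1.03) and Atf6 only as tested (-0.69 ± 0.17, corrected -0.25).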

How the data were processed

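Each of the 12 libraries came as a table of estimated counts per gene (expected counts, partly fractional), deposited by the authors without normalisation. The submitters' processing notes name mm10 and DESeq; the aligner, counter, annotation and strand setting are not given in the sources used here. Entries of a gene were summed (486 of 36186 belong to genes listed at several places) and rounded. In R 4.3.3, edgeR 4.0.16 kept 13154 genes (filterByExpr), scaled by TMM and fitted 1 quasi-likelihood model to 4 group means (8 residual degrees of freedom, biological coefficient of variation 0.238). Adjusted p are Benjamini-Hochberg over these genes, two-sided, called under 0.05; SE is the log2 change over the root of F. The corrected fit adds, as offsets, natural splines (4 degrees of freedom each) of log2 CPM (prior count 2) on length and GC per library. Lengths are from GENCODE M21: 12654 matched transcripts and 384 unions of exons. Alternatives used DESeq2 1.42.0, other filters, blocks and left-out libraries. Fits were tested on simulated data. No 2 libraries of a group agreed within counting noise.

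The members, lists and tests were chosen with earlier results of these data known. Named are the 9 members, up to 4 called genes of each list by smallest p, and the 5 genes most like the members' mean.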

Additional observations from a re-analysis of the deposited data

Results flagged for a closer look

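The log2 change after resection of Spink4 in the 2'-FL arm exceeded that in the control arm by 1.86 ± 0.53 (SE, adjusted p = 0.0326, edgeR), and that of Agr2 by 1.19 ± 0.35 (adjusted p = 0.0358, edgeR), so the test of the difference between the arms passed for both. With length and GC corrected neither passed (0.69 and -0.04), and each was called in 5 of 12 fits that left out 1 library.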

How the results depend on the processing

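With length and GC corrected, the fit called 1 member in place of 6 in the 2'-FL arm and 4680 genes in place of 7274, 2855 genes in place of 5011 between the Post groups, and in the interaction 0 members and 0 genes in place of 2 and 2038. Signs turned, corrected, in the 2'-FL arm for Muc2 (0.15), Fcgbp (0.47), Agr2 (-0.39), Zg16 (-0.17), Guca2a (-0.79) and C1galt1c1 (-0.65), between the Post groups for Muc2 (0.40), Tff3 (-0.11), Fcgbp (0.33), Agr2 (-0.38) and Zg16 (-0.93), and in the interaction for Muc2 (0.48), Fcgbp (0.72), Agr2 (-0.044), Zg16 (-0.50) and Guca2a (-0.20). Guca2a between the Post groups turned with DESeq2's size factors (0.0092). The cause was not tested. DESeq2 called 1 member in the control arm, 5 between the Post groups and 23 genes between the Pre groups. Fitting only the 2 groups compared gave 1 member in the control arm and 1 gene between the Pre groups, where no filter on low counts gave 12 genes. In the control arm 582 genes were higher and 833 lower as tested, against 952 and 649 corrected.

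Libraries with equal numbers did not vary together (18 pairs, r from -0.23 to 0.42, 4 over 0.1), so the numbers are not taken as pairs. With the number as a replicate block, 1 member was called in the control arm and 1 in the interaction, and Guca2a between the Post groups stood at 0.0049.

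Leaving out 1 library at a time gave 0 to 1 members and 265 to 1843 genes in the control arm, 6 to 7 and 6215 to 7375 in the 2'-FL arm, 1 to 5 and 3279 to 5384 between the Post groups, 0 to 0 and 0 to 17 between the Pre groups, and 0 to 3 and 424 to 3024 in the interaction. Members between the Post groups numbered 1 without Post control 3 or Post 2'-FL 1 and 5 without Post 2'-FL 3, and genes in the control arm 626 and 340 without Pre control 2 and 3 and 350 and 265 without Post control 1 and 2. Signs turned in some of these fits for uncalled values: Agr2 in the control arm (-0.25 to 0.082), Guca2a in the 2'-FL arm (-0.13 to 0.29), Guca2a and Zg16 between the Post groups (-0.27 to 0.28 and -0.17 to 0.38), Muc2 and Spink4 between the Pre groups (-0.10 to 0.074 and -0.31 to 0.24), and Atoh1 and Spdef in the interaction (-0.40 to 0.023 and -0.057 to 0.30). Atoh1 and Spdef, at 29 to 157 counts, are the members that depth limits most.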

Other observations

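Retnlb, a goblet cell peptide induced in defence, did not pass the filter on low counts. It had 1.89, 0.308 and 0.186 CPM in Post 2'-FL, 0 CPM in the 3 Post control libraries, 0, 0.156 and 0 CPM in Pre 2'-FL, and 0, 0 and 0.119 CPM in Pre control, so the Post 2'-FL mean rests on library 1. The gel-forming mucin Muc5b of other epithelia was at 0 in all 12 libraries, and Muc5ac in 11 of 12.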
